A study of Homo sapiens with 6 samples.

Results

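The Kruppel-like factors (KLFs) are described here as 10 members, KLF2, KLF3, KLF4, KLF5, KLF6, KLF7, KLF9, KLF10, KLF11 and KLF13, each matched by its symbol to 1 of the 63140 genes of a count table from HEK293 cells. The members were chosen by their log2 fold changes between GSK-A1 and DMSO, with results of that comparison in view, so their differences between treatments are given as a description and carry no p-value. The 6 libraries came from HEK293, an established human line derived from embryonic kidney and grown in serum-containing medium. In 3 of them confluent cells had received 100 nM GSK-A1 for 24 h, and in the other 3 the solvent dimethyl sulfoxide (DMSO) for the same time. GSK-A1 inhibits phosphatidylinositol 4-kinase alpha (PI4KA), the lipid kinase that makes phosphatidylinositol 4-phosphate at the plasma membrane. Both groups share the line and the medium, and no genetic change separates them. The labels call the libraries of a group biological replicates without saying how the cultures were kept apart, so the errors below measure the spread between these libraries.

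KLFs are transcription factors that bind GC-rich and CACCC elements through C-terminal zinc fingers that are alike across the family, while their N-terminal parts differ. By these parts the family is usually divided into KLF3, KLF8 and KLF12, which recruit the CtBP corepressors, KLF1, KLF2, KLF4, KLF5, KLF6 and KLF7, which act mostly as activators through acetyltransferases, and KLF9, KLF10, KLF11, KLF13, KLF14 and KLF16, which recruit the Sin3A corepressor. Several members, KLF2, KLF4, KLF6 and KLF10 among them, are known as genes that respond within hours to serum, growth factors, flow or transforming growth factor beta (TGF-beta). The related SP factors bind the same GC boxes.

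Total counts per library lay between 33040178 and 47777233. GSK-A1 replicate 2 stood apart from the other GSK-A1 libraries. Its Pearson correlation of log2 expression across genes was 0.995 with replicate 1 and 0.994 with replicate 3. Between replicates 1 and 3 it was 0.997. The DMSO libraries correlated with GSK-A1 replicates 1 and 3 at 0.994 to 0.995, and with GSK-A1 replicate 2 at 0.992. Replicate 2 was thus about as far from its own group as the DMSO libraries were from replicates 1 and 3. All libraries carried the same lane label. Of the markers known for the line, VIM and NEFL were abundant, at 1050 to 1284 and 713.5 to 794 CPM (counts scaled to a common library total), KRT8 and KRT18 lay between 109 and 162 CPM, and PAX2 and ENO2 were low, between 1.93 and 9.21 CPM. NEFM was nearly absent, at most 0.381 CPM. The 5 blood, 4 endothelial, 4 fibroblast and 4 keratinocyte markers summed to 0.462 to 0.584, 0.272 to 0.396, 2.59 to 3.59 and 16.8 to 17.9 CPM with DMSO. With GSK-A1 they summed to 0.351 to 0.901, 0.176 to 0.30, 2.00 to 2.46 and 19.2 to 19.8 CPM. HBB, COL1A2 and KRT5 had no count in any library. Nearly all of the keratinocyte sum was KRT10, and most of the fibroblast sum was PDGFRA. In the fit over all genes given below, VIM and KRT8 were called higher (edgeR adjusted p = 0.0042 and 0.0373) and PAX2 and PDGFRA lower (0.0177 and 0.0333). CD14 and KRT10 were not called. Of the 6 line markers tested 50% were called, beside 22.9% of all genes. Whether the cells behind these markers bear on the results was not tested.

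All 10 members passed the filter on low counts, the lowest count being 81, for KLF2 in DMSO replicate 3. Over the 10 the log2 fold changes of GSK-A1 against DMSO ran from -0.02 to 1.04 with a median of 0.22, beside a median of -0.01 over the 16754 genes tested. KLF6 and KLF7 were about 2.06-fold and 1.88-fold higher with GSK-A1, KLF2 and KLF4 were 1.61-fold and 1.36-fold higher, and KLF13, KLF5 and KLF3 were 1.20-fold, 1.13-fold and 1.12-fold higher. KLF9, KLF10 and KLF11 were at 1.07, 1.00 and 0.988 times their DMSO level. In the fit over all genes (edgeR quasi-likelihood, Benjamini-Hochberg adjusted p under 0.05), 6 of the 10 members were called, 6 higher and 0 lower. Of all genes tested 22.9% were called, 12.0% higher and 10.9% lower. In 7 members the 3 GSK-A1 libraries all lay above the 3 DMSO libraries, which held for 20.2% of all genes, against 20.4% with all GSK-A1 libraries below, and 40.5% of all genes had groups that did not overlap in either direction. The list was made with this contrast known, and nothing is read from these counts. Of all calls 52.3% were higher with GSK-A1, a share of 33.3% under upper-quartile scaling. In RNA from whole cultures, a change in every cell and a change in some of the cells cannot be told apart.

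**Figure D1:**
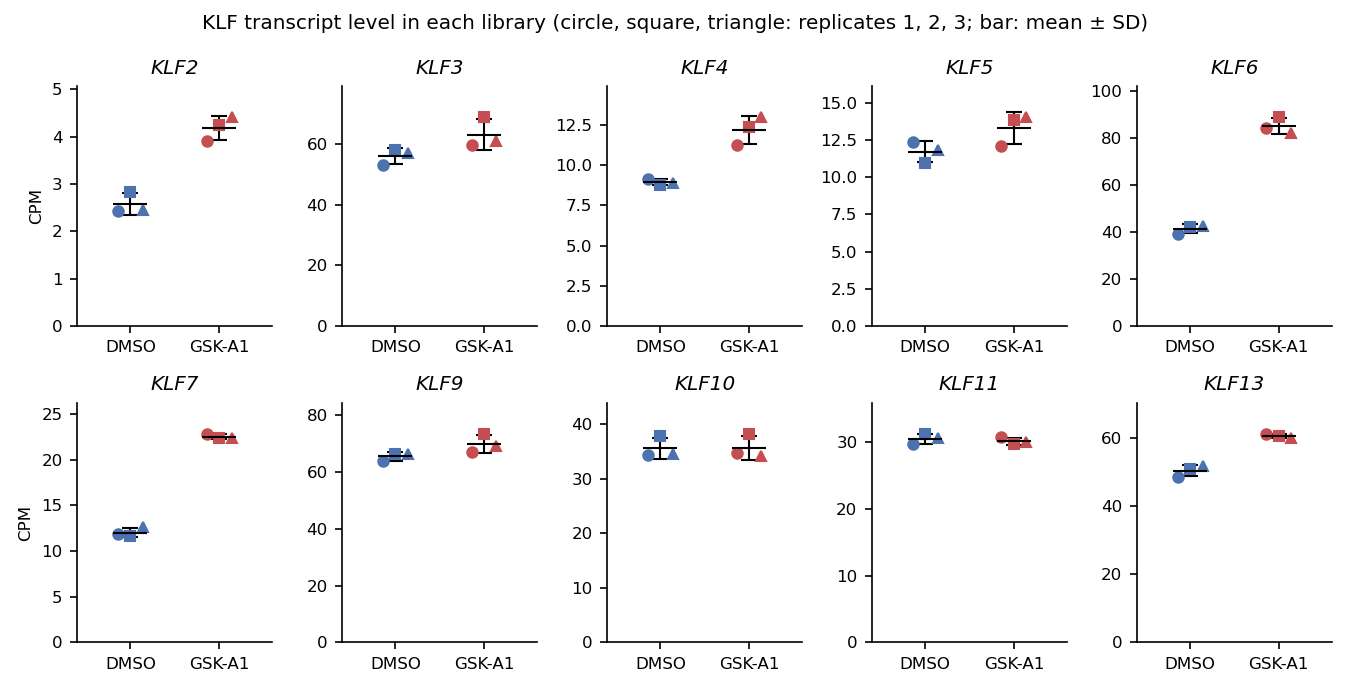
CPM (counts scaled to a common library total, vertical axis starting at 0) of each member in the 3 DMSO and 3 GSK-A1 libraries, with markers for replicates 1 to 3 and the mean ± SD. The groups stand well apart for KLF6 (39.3 to 42.6 against 82.2 to 88.9 CPM) and KLF7 (11.6 to 12.6 against 22.4 to 22.8 CPM) and overlap for KLF5, KLF10 and KLF11.

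Among the members classed as activators, KLF6 (ENSG00000067082) was the most abundant and differed most. KLF6 is a widely expressed factor induced early in injury and by growth factors, and it is known as an activator of CDKN1A. The DMSO libraries, in the order of their replicate numbers, had 39.3, 42.3 and 42.6 CPM of KLF6, and the GSK-A1 libraries, in the same order used below, had 84.3, 88.9 and 82.2 CPM. Every GSK-A1 library was far above every DMSO library, and the libraries of a group lay close together. Mean KLF6 was 41.4 ± 1.8 CPM and 85.1 ± 3.4 CPM (SD, n = 3), and the log2 fold change came to 1.04 ± 0.05 (SE). It was 1.02 without GSK-A1 replicate 2. Ranked by signed log2 fold change, KLF6 was number 61 of the 16754 genes. Transcripts of other genes shared no stretch of 50 bases with KLF6.

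Windows of 300 bases, from 250 bases before to 50 bases after a start site, were taken from the RefSeq promoter table (GRCh38.p14). The search covered 8 of the 10 members, with 13 windows in all. They were searched on both strands for CACCC, the GC box GGGCGG, the AP-1 site TGACTCA, the core of the cyclic AMP response element TGACGT, the ETS site CCGGAAG, the FOXO site GTAAACA and, by name, the CArG box of serum response factor (SRF) and the MEF2 box. The KLF6 window is shown because KLF6 differed most. It lies on the minus strand at chr10:3785160-3785459 and is printed 5′ to 3′ along the gene, with its GC boxes in capitals:

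KLF6: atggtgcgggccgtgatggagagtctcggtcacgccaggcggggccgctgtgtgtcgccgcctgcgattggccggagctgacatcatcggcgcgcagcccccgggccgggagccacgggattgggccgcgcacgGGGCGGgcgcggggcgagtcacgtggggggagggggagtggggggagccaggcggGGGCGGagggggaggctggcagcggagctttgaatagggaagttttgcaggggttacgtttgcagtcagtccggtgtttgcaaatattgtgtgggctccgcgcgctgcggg

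It held 2 GC boxes, which begin at -116 and -61 relative to the start site, and none of the other letters searched. GC boxes occurred in 45.0% of the 35116 windows counted from the table, so a match of this kind is common.

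KLF7 (ENSG00000118263), the close relative of KLF6 known mainly from the development of neurons, was less abundant and differed nearly as much. It stood at 11.9, 11.6 and 12.6 CPM with DMSO and at 22.8, 22.4 and 22.4 CPM with GSK-A1. The GSK-A1 libraries were almost equal to one another and all far above the DMSO libraries. Means of 12.0 ± 0.5 and 22.5 ± 0.3 CPM (SD, n = 3) gave a log2 fold change of 0.91 ± 0.06 (SE), number 91 of all genes in signed order, and 0.92 without GSK-A1 replicate 2. Of its 50-base stretches 0.19% occurred also in the pseudogene KLF7P1. RefSeq gave KLF7 4 start sites, and 1 of the 4 windows held a CArG box, here in capitals, on the minus strand at chr2:207167197-207167496:

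KLF7: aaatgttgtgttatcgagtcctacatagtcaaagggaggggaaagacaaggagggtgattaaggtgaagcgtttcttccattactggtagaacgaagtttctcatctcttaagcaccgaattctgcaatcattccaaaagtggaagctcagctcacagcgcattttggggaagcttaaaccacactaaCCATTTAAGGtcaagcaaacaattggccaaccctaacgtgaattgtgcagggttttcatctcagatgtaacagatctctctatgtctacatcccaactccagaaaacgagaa

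The box spans -62 to -53 relative to that start site. The same window also held 1 CACCC match, which is not marked. A CArG box occurred in 1.3% of all windows and in no other of the 13 members' windows searched. The counts are per gene and do not tell the start sites apart, and a match of letters is no measurement of binding.

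KLF2 and KLF4 are best known from endothelium, where flow and the ERK5 kinase acting through MEF2 factors induce both. KLF2 (ENSG00000127528) was the lowest member, at 2.44, 2.84 and 2.44 CPM with DMSO and 3.90, 4.25 and 4.41 CPM with GSK-A1. All GSK-A1 libraries were above all DMSO libraries, although these values rest on only 81 to 182 counts per library. Its log2 fold change of 0.69 ± 0.11 (SE) therefore had the largest error of the members, and it was 0.68 without GSK-A1 replicate 2. Its promoter window is shown for its MEF2 box, in capitals, on the plus strand at chr19:16324576-16324875:

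KLF2: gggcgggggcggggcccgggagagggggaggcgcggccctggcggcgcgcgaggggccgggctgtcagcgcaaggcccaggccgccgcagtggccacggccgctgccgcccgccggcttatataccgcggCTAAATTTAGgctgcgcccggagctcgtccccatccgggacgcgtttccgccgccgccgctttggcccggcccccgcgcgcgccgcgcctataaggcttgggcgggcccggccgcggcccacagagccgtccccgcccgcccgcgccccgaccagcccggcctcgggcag

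This window also held 6 GC boxes, which are not marked. The MEF2 box spans -120 to -111. Such a box occurred in 3.0% of all windows and in no other of the 13 members' windows searched. KLF4 (ENSG00000136826), also one of the factors used to reprogramme cells to pluripotency, stood at 9.13, 8.79 and 8.90 CPM with DMSO and at 11.2, 12.4 and 12.98 CPM with GSK-A1. Its DMSO libraries were nearly equal and all below the GSK-A1 libraries. The log2 fold change was 0.44 ± 0.07 (SE), or 0.43 without GSK-A1 replicate 2, and the KLF4 window held 4 GC boxes and none of the other letters searched.

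KLF5 (ENSG00000102554), a factor of dividing epithelial cells, was at 12.4, 10.9 and 11.8 CPM with DMSO and at 12.1, 13.9 and 14.04 CPM with GSK-A1. GSK-A1 replicate 1 lay inside the DMSO range, so the groups overlapped. The log2 fold change was 0.18 ± 0.08 (SE), and without GSK-A1 replicate 1 it was 0.26 and KLF5 was called. KLF5 had 2 windows, with 3 CACCC matches and 2 GC boxes between them. KLF1, the erythroid factor of the same class and no member of the list, stood at 2.86 ± 0.16 and 2.39 ± 0.48 CPM in the DMSO and GSK-A1 groups, a log2 difference of -0.24 ± 0.14 (SE) at an edgeR adjusted p of 0.226.

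KLF3 (ENSG00000109787), a repressor working with CtBP, was at 53.2, 58.0 and 57.1 CPM with DMSO and at 59.6, 68.9 and 60.9 CPM with GSK-A1. The groups did not overlap, but GSK-A1 replicate 2 was well above the other libraries of its group. The log2 fold change of 0.17 ± 0.05 (SE) was 0.11 without that library, a change of over 1.5 times. The call on KLF3 was lost with upper-quartile factors, with plain library totals, without DMSO replicate 1, 2 or 3, and at the stricter threshold of 0.01. The antisense gene KLF3-AS1, at 0.185 CPM, has exons over 4.2% of those of KLF3.

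Of the members that recruit Sin3A, a class applied after the values were seen, KLF13 differed by more than KLF9, KLF10 and KLF11. KLF13 (ENSG00000169926), known as a regulator of CCL5 in T cells, was at 48.6, 50.8 and 51.6 CPM with DMSO and at 61.1, 60.5 and 59.9 CPM with GSK-A1. The groups were well separated and the GSK-A1 libraries nearly equal, with a log2 fold change of 0.27 ± 0.04 (SE), also 0.27 without GSK-A1 replicate 2. KLF9 (ENSG00000119138), a target of glucocorticoid and thyroid hormone receptors, was at 63.8, 66.4 and 66.5 CPM with DMSO and at 67.0, 73.5 and 69.2 CPM with GSK-A1. Its groups only just failed to overlap, with a log2 fold change of 0.09 ± 0.04 (SE) that was 0.06 without GSK-A1 replicate 2. KLF9 was called with the trend on GC content removed, an alternative added with the values known.

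KLF10 and KLF11, first described as TGF-beta inducible early genes, were the members with the smallest differences. KLF10 (ENSG00000155090) was at 34.3, 37.7 and 34.5 CPM with DMSO and at 34.7, 38.2 and 34.1 CPM with GSK-A1, and replicate 2 was the highest library in both groups. The log2 fold change was 0.0035 ± 0.06 (SE), and it became negative with upper-quartile factors (-0.037), with plain library totals (-0.0044), with a filter on CPM (-0.0035), and on leaving out either DMSO replicate 1 (-0.022), replicate 3 of the same group (-0.015) or GSK-A1 replicate 2 (-0.043). KLF11 (ENSG00000172059) was at 29.8, 31.3 and 30.6 CPM with DMSO and at 30.7, 29.8 and 29.96 CPM with GSK-A1, which gave a log2 difference of -0.02 ± 0.05 (SE). For both the groups overlapped throughout. One of the 2 KLF11 windows is shown for its cyclic AMP response element, in capitals. It lies on the plus strand at chr2:10043971-10044270:

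KLF11: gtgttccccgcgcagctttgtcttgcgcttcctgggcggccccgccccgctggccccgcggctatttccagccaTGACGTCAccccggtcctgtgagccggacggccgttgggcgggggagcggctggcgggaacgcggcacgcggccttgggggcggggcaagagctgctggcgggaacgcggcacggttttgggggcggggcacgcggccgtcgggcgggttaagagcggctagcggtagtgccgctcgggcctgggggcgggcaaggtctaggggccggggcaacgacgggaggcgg

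This window also held 7 GC boxes and 1 CACCC match, which are not marked. The core TGACGT was matched on both strands there, in 2 overlapping positions from -176 to -169 relative to the start site. It occurred in 8.0% of all windows and, among the members' windows searched, also in KLF13, from -56 to -51. KLF3 and KLF10 had no window in the search. Members' windows on chromosome 8, where KLF10 lies, were left out of it. The search does not show that the RefSeq table lacks a window for either gene. None of the 13 windows searched held the AP-1, ETS or FOXO letters, found in 4.9%, 10.3% and 3.4% of all windows. This says only that these letters are not in these 300 bases. Whether any of the matches printed bears on the levels was not tested.

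Levels of different genes were compared as CPM per kilobase of merged exons, with exon lengths from GENCODE release 29. With DMSO the order of the mean levels was KLF9 (12.7 ± 0.3 CPM per kilobase, SD, n = 3), KLF3 (8.91 ± 0.40), KLF10 (8.87 ± 0.48), KLF6 (6.74 ± 0.30), KLF11 (6.66 ± 0.16), KLF13 (5.35 ± 0.16), KLF5 (3.01 ± 0.18), KLF4 (2.44 ± 0.05), KLF7 (1.30 ± 0.05) and KLF2 (1.28 ± 0.11). The ranges of the libraries overlapped for the neighbours KLF3 and KLF10, KLF6 and KLF11, and KLF7 and KLF2, and the other neighbours were apart. With GSK-A1 KLF6 was first, at 13.9 ± 0.6 CPM per kilobase, overlapping KLF9 at 13.5 ± 0.6. KLF3 (10.02 ± 0.80) and KLF10 (8.91 ± 0.55) overlapped each other, as did KLF11 (6.57 ± 0.11) and KLF13 (6.43 ± 0.07), and KLF5 (3.42 ± 0.28) and KLF4 (3.33 ± 0.24). KLF7 (2.43 ± 0.03) and KLF2 (2.08 ± 0.13) came last and did not overlap. With the longest transcript in place of merged exons the DMSO order was the same, while with GSK-A1 KLF13 came before KLF11 and KLF4 before KLF5.

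**Figure D2:**
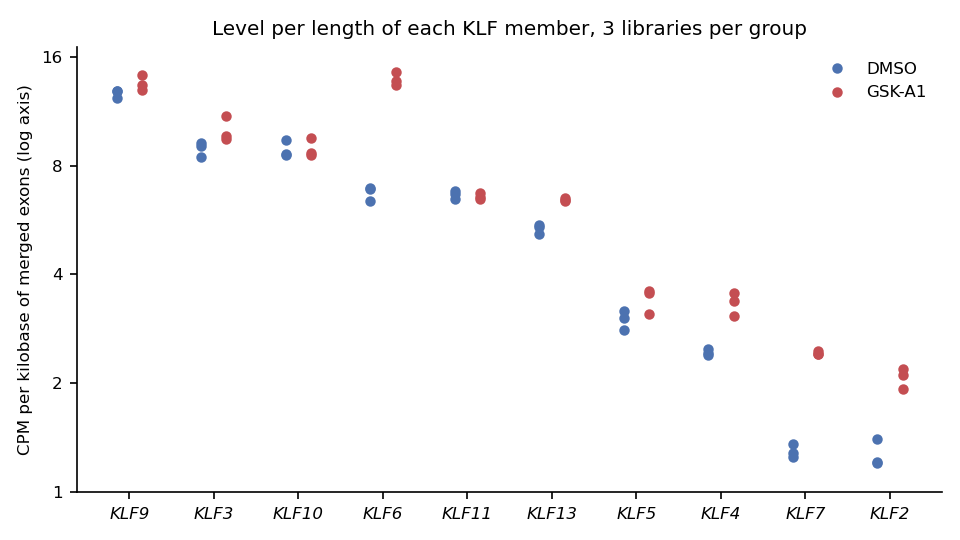
CPM per kilobase of merged exons (log axis) for each member in the 3 DMSO and 3 GSK-A1 libraries, ordered by the DMSO mean. KLF6 moves from 6.74 in DMSO to 13.9 in GSK-A1, beside KLF9, and KLF7 and KLF2 stay lowest in both groups.

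Summed over the 18 KLF genes of the table, the level was 82.8 ± 1.1 CPM per kilobase in the DMSO group and 96.9 ± 1.9 in the GSK-A1 group (SD, n = 3). KLF6 made up 7.85%, 8.23% and 8.34% of this sum in DMSO replicates 1 to 3 and 14.4%, 14.6% and 13.95% in GSK-A1 replicates 1 to 3. The share of KLF7 was 1.57% ± 0.07 with DMSO and 2.51% ± 0.07 with GSK-A1. KLF9 had 15.3% ± 0.2 and 13.9% ± 0.4, KLF10 had 10.7% ± 0.5 and 9.19% ± 0.39, and KLF11 had 8.04% ± 0.09 and 6.79% ± 0.23, so the share of these members was lower while their own levels differed little.

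The spread between replicates was like that of other genes. The SD of log2 CPM in the DMSO group was between 0.028 for KLF4 and 0.122 for KLF2, beside a median of 0.0585 over all genes tested. In the GSK-A1 group it was between 0.015 for KLF13 and 0.120 for KLF5, beside a median of 0.090. GSK-A1 replicate 2 differed from the mean of replicates 1 and 3 by 0.19 in KLF3, 0.15 in KLF10, 0.11 in KLF9 and 0.09 in KLF6 on the log2 scale. It differed by -0.01 in KLF7 and by -0.00031 in KLF13, and the median size of this deviation over all genes was 0.12.

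The genes whose pattern was most like KLF6 were found by the distance of log2 CPM, centred on the DMSO mean, over the 6 libraries. The nearest was COL12A1, a collagen, which went from 7.63 ± 0.47 CPM in the DMSO libraries to 15.3 ± 1.1 CPM, at a distance of 0.10. It was followed by SPRY4, a feedback inhibitor of receptor tyrosine kinase signalling, at 8.74 ± 0.95 and 18.9 ± 0.7 CPM (distance 0.24), and SERPINB8, a serine protease inhibitor, at 0.737 ± 0.016 and 1.47 ± 0.15 CPM (0.25). The ETS factor ETV5, at 33.3 ± 3.0 and 68.4 ± 0.5 CPM (0.25), and the AP-1 subunit FOSL2, at 17.99 ± 0.33 and 33.7 ± 0.5 CPM (0.27), came next. With only 2 groups, a short distance mostly reflects an equal step between them.

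**Figure D3:**
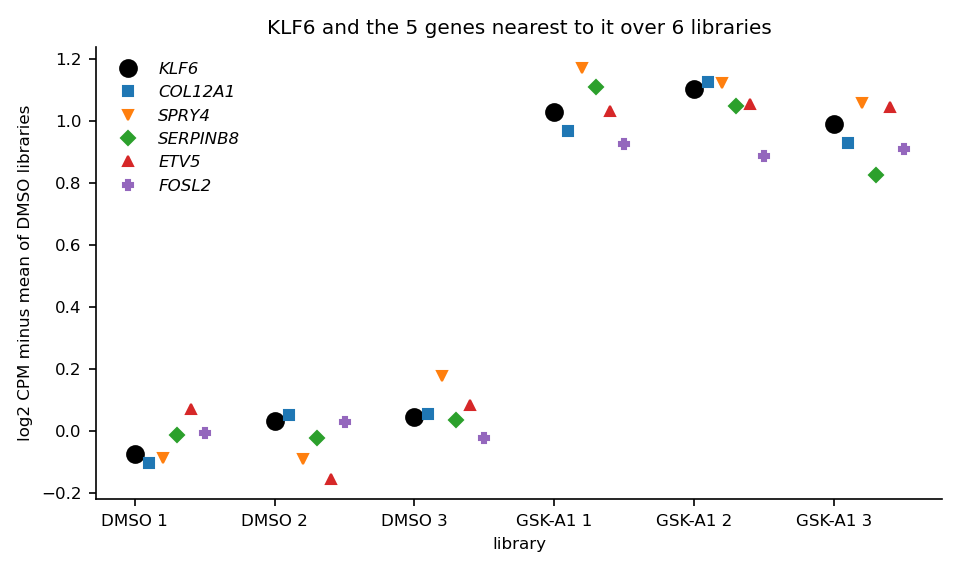
Log2 CPM minus the mean of the DMSO libraries (vertical axis) in each of the 6 libraries for KLF6 and the 5 genes nearest to it. All 6 genes lie near 0 in the DMSO libraries and about 1 higher in the GSK-A1 libraries, and COL12A1, at a distance of 0.10, follows KLF6 most closely.

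The rest of the family was tested in the fit over all genes. Of 17 other KLF and SP genes 13 passed the filter, and 3 were called, 2 higher and 1 lower, which is 23.1% beside the 22.9% of all genes. SP1, the ubiquitous GC-box factor and the most abundant of them, rose from 199 ± 7 to 224 ± 2 CPM (means ± SD of 3 libraries), or by 0.17 ± 0.04 on the log2 scale (SE, edgeR adjusted p = 0.0030). KLF15, known from metabolism in liver and muscle, rose from 9.30 ± 0.14 to 10.9 ± 0.8 CPM (0.23 ± 0.07, edgeR adjusted p = 0.0315). SP9, a developmental factor, fell from 5.79 ± 0.26 to 4.81 ± 0.30 CPM (-0.28 ± 0.09, edgeR adjusted p = 0.0391). The opposite strand carries AC018470.1, at 0.564 CPM, whose exons lie over 63.7% of those of SP9. KLF15 was not called under upper-quartile factors, with DESeq2 or without any 1 library other than GSK-A1 replicate 2. SP9 was not called without a count filter, with DESeq2, with the GC trend removed, or without DMSO replicate 1, 2 or 3 or GSK-A1 replicate 1.

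The other tested relatives differed by less than the test could call. In the CtBP and Sin3A classes, KLF12 was at 34.8 ± 2.0 and 36.3 ± 1.1 CPM (log2 fold change 0.06 ± 0.05, edgeR adjusted p = 0.425). KLF16 was at 50.05 ± 1.5 and 51.2 ± 1.6 CPM (0.03 ± 0.04, adjusted p = 0.638), negative with upper-quartile factors (-0.0076) and with a call as higher (0.14, adjusted p = 0.0257) with the GC trend removed. KLF14 was low, at 1.16 ± 0.14 and 0.974 ± 0.065 CPM (-0.26 ± 0.18, adjusted p = 0.321). SP2, SP3, SP4, SP6, SP7 and SP8 had log2 fold changes between -0.29 and 0.15 with edgeR adjusted p-values of 0.494 to 0.978, and the signs of SP2 and SP3 turned under DESeq2-type (RLE) factors. KLF8, KLF17, KLF18 and SP5 did not pass the filter, at no more than 0.305 CPM in any library, and SP5 had no count.

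**Figure D4:**
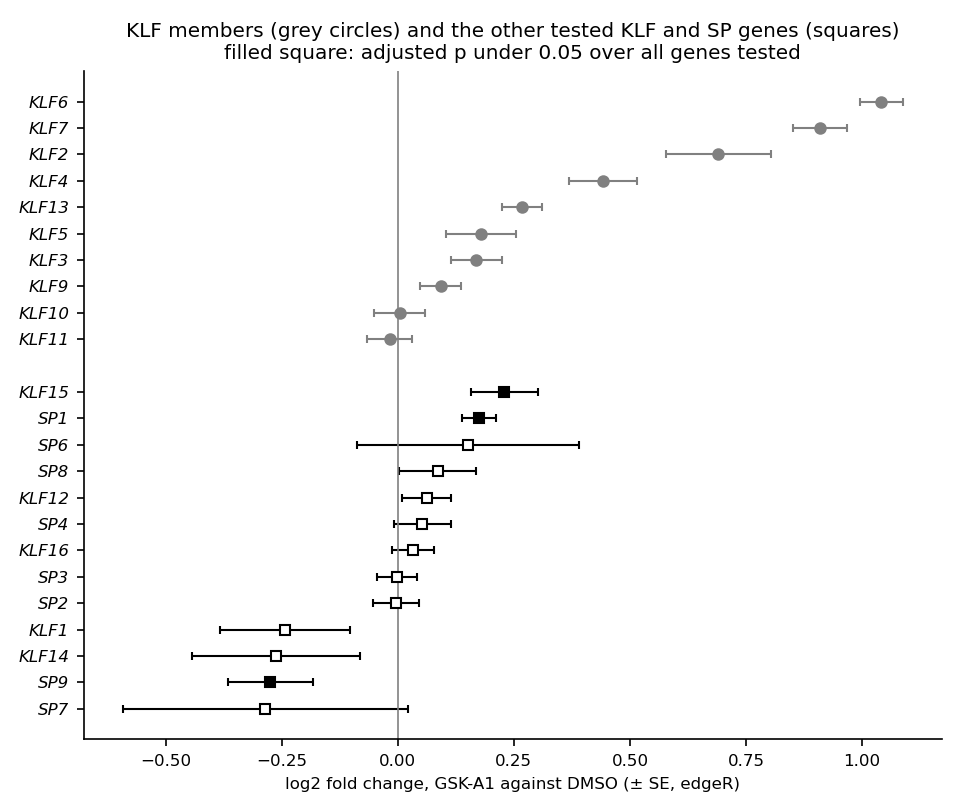
Log2 fold change of GSK-A1 against DMSO with its SE for the 10 members (grey circles, description only) and the 13 other tested KLF and SP genes (squares, filled where edgeR adjusted p is under 0.05). KLF6, at 1.04, and KLF7, at 0.91, lie farthest to the right, and among the squares KLF15, SP1 and SP9 are filled.

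Genes known to act on, with or after KLFs were read from the same fit. Their lists, here and in the paragraphs below, were chosen with earlier results of these data known. The shares called are therefore description, and nothing is read from them. Tested were 13 genes around SRF and the ERK5 to MEF2 route, both described elsewhere as inducers of KLFs. Of these 7 were called, 6 higher and 1 lower, and the median over the 13 log2 fold changes was 0.12. That is 53.8% called, beside 22.9% of all genes. Of the 7 calls, MRTFA and MEF2D were lost with upper-quartile factors (edgeR adjusted p = 0.101 and 0.0721) and without any 1 library other than GSK-A1 replicate 2 (0.0509 to 0.121 and 0.0512 to 0.12). ELK4, an ETS partner of SRF, rose from 59.1 ± 2.5 to 77.5 ± 1.8 CPM (SD, n = 3; log2 fold change 0.39 ± 0.04, SE, edgeR adjusted p = 1.45e-05). MAP3K2, a kinase above ERK5, rose from 52.9 ± 0.9 to 64.1 ± 4.0 CPM (0.28 ± 0.05, edgeR adjusted p = 6.96e-04), and MEF2C rose from 32.1 ± 2.0 to 39.04 ± 2.35 CPM (0.28 ± 0.06, edgeR adjusted p = 0.00247). The lower call was ELK1, which fell from 67.1 ± 0.4 to 58.9 ± 0.6 CPM (-0.19 ± 0.04, edgeR adjusted p = 0.0030). SRF itself was at 106 ± 3 and 104 ± 6 CPM (-0.02 ± 0.04, edgeR adjusted p = 0.761). MAPK7, the gene of ERK5, was at 16.8 ± 0.9 and 15.1 ± 0.8 CPM and was not called (-0.15 ± 0.06, edgeR adjusted p = 0.101).

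In the TGF-beta pathway, which induces KLF10 and KLF11, 5 of 11 tested genes were called, 5 higher and 0 lower, with a median of 0.14. The called share was 45.5%, beside 22.9% of all genes called and 12.0% called higher. SMAD4 lost its call without DMSO replicate 1 (edgeR adjusted p = 0.0708) or DMSO replicate 2 (0.0514). The corepressor SKIL rose from 32.4 ± 0.3 to 39.25 ± 1.35 CPM (0.28 ± 0.05, edgeR adjusted p = 6.16e-04), the inhibitory SMAD7 from 13.2 ± 0.3 to 16.5 ± 0.5 CPM (0.32 ± 0.06, edgeR adjusted p = 0.00141) and the signal transducer SMAD3 from 55.7 ± 1.9 to 63.6 ± 1.2 CPM (0.19 ± 0.04, edgeR adjusted p = 0.00456). Of 6 genes of the glucocorticoid receptor and its targets, the setting in which KLF9 is induced, 1 was called higher and 1 lower (median 0.05), or 33.3% beside the 22.9% of all genes. TSC22D3 fell from 15.45 ± 1.73 to 9.25 ± 0.41 CPM (-0.74 ± 0.08, edgeR adjusted p = 1.80e-05), while SGK1 rose from 6.39 ± 0.91 to 8.997 ± 0.935 CPM (0.49 ± 0.11, edgeR adjusted p = 0.00394).

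Of 16 cofactors and ubiquitin ligases of KLFs, all tested, 2 were called higher and 1 lower, with a median of -0.007, or 18.8% beside the 22.9% of all genes. FBXO32, a ligase subunit that marks KLF4 for degradation, rose from 24.2 ± 1.3 to 31.7 ± 1.1 CPM (0.39 ± 0.05, edgeR adjusted p = 1.13e-04) and WWP1, a ligase for KLF2 and KLF5, from 42.6 ± 0.2 to 49.9 ± 4.4 CPM (0.23 ± 0.05, edgeR adjusted p = 0.0072). The deacetylase HDAC1 fell from 247 ± 4 to 220 ± 5 CPM (-0.16 ± 0.03, edgeR adjusted p = 0.00336). CTBP1, CTBP2, SIN3A and SIN3B, the corepressors themselves, were not called, with log2 fold changes between -0.08 and 0.0019.

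Of 20 genes described elsewhere as KLF targets 16 were tested, and 7 were called, 5 higher and 2 lower, with a median of 0.02, or 43.8% beside the 22.9% of all genes. Among the higher calls, PLAU rested on only 13 to 29 counts per library and THBD on 17 to 49. THBD lost its call without DMSO replicate 1 (edgeR adjusted p = 0.0514) or DMSO replicate 3 (0.053), and S1PR1 without DMSO replicate 2 (0.0587). CDKN1A, the cell-cycle inhibitor p21, rose from 79.1 ± 2.4 to 109.9 ± 2.3 CPM (0.47 ± 0.04, edgeR adjusted p = 6.71e-07). L1CAM, a neural adhesion molecule linked to KLF7, rose from 2.25 ± 0.28 to 4.61 ± 0.08 CPM (1.01 ± 0.11, edgeR adjusted p = 1.53e-05). These lists hold 3 shared genes between the TGF-beta pathway and the targets, and no list was tested as a whole.

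**Figure D5:**
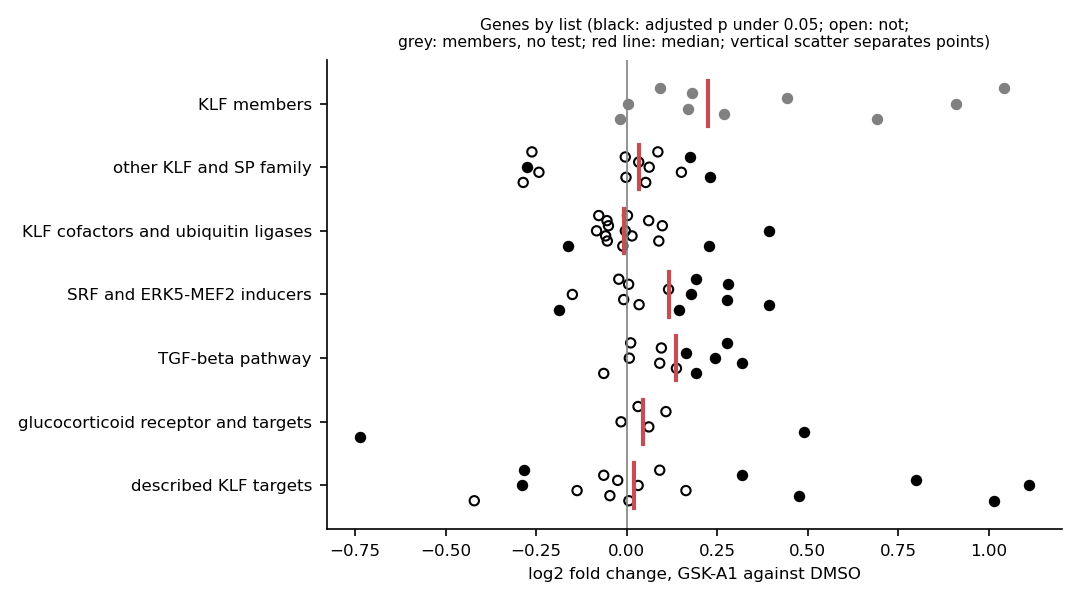
Log2 fold change of GSK-A1 against DMSO (horizontal axis) for the tested genes of each list, black where edgeR adjusted p is under 0.05 and open where not, with the members in grey and the median of each list as a red line. The medians run from -0.007 for the cofactors to 0.14 for the TGF-beta pathway among the lists tested, and stand at 0.22 for the members.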

How the data were processed

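The authors deposited unnormalised gene counts for 6 libraries of total RNA prepared with a stranded Illumina kit, per the labels' protocols. The submitters' processing notes name cutadapt 5.1, STAR 2.7.11b, featureCounts, Subread 2.1.1, DESeq2 1.38.0 and the build GRCh38.p13, without settings. Annotation release and strand setting are not given in the sources used here. Groups and replicate numbers came from sample titles.

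Genes were kept by filterByExpr (smallest count 10, smallest total 15), scaled with TMM factors and tested with edgeR 4.0.16 (robust quasi-likelihood F test, R 4.3.3). A call is a Benjamini-Hochberg adjusted p under 0.05 over all 16754 genes tested. Standard errors are the unshrunken coefficient divided by the square root of F. CPM are counts relative to the TMM-adjusted total. Log2 CPM used a prior count of 2. The code was tested on simulated counts in which 200 genes were changed by a larger or a smaller step. It called 100% of the larger changes and 83% of the smaller ones. Of the calls there, 7.58% fell on unchanged genes. Errors come from replicates, since read counts without molecular identifiers are not independent molecules. All pairs of libraries differed beyond sampling of reads (chi-square per gene 1.84 to 23.1), so no library appears to be deposited more than once. Whether libraries of a group share a culture is not shown by this. Exon lengths and overlaps came from GENCODE 29 (GRCh38) and promoter windows from RefSeq (GRCh38.p14).

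The members and the lists were chosen with earlier results of these data known. Named genes were every member, every tested other KLF or SP gene, the called genes with the smallest p, at most 3, of each further list, and the 5 nearest to KLF6 with a symbol and a mean of at least 1 CPM. One gene that this rule names is not reported here. SRF, ELK1, MAPK7, MRTFA, MEF2D, SMAD4, THBD, S1PR1 and the CtBP and Sin3 corepressors were named in addition, after their values were seen. The class division of the family was also added after the values were seen. Alternatives were other scaling factors, other filters, a replicate block, DESeq2 1.42.0, limma-voom (limma 3.58.1), a stricter threshold, leaving out each library and, added after the data were seen, removal of each library's GC trend (loess, span 0.3).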

Additional observations from a re-analysis of the deposited data

How the results depend on the processing

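At the threshold of 0.05 the settings tried gave 136 of 150 log2 differences of the members on the same side of the threshold and in the same direction. KLF6 ranged from 1.00 to 1.07, KLF7 from 0.869 to 0.94, KLF2 from 0.644 to 0.787, KLF4 from 0.397 to 0.51 and KLF13 from 0.227 to 0.344 over all of them. KLF3 ranged from 0.107 to 0.218 and lost its call in 5 of these settings and at an adjusted p under 0.01. Removing the GC trend brought KLF5 and KLF9 past the threshold, as did leaving out GSK-A1 replicate 1 for KLF5. KLF10 changed sign with upper-quartile factors (-0.0374), plain library totals (-0.00435) and with the filter of at least 1 CPM in at least 3 libraries (-0.00349), and with 1 library left out it ranged from -0.0428 to 0.0497. KLF16 did so with upper-quartile factors (-0.00757). The sign of SP2 turned under RLE factors (0.00218), without a filter (0.00534), with DESeq2 (0.00671) and with the GC trend removed (0.0637), and that of SP3 under RLE factors (0.00435), without a filter (0.00647) and with DESeq2 (0.00928). With 1 library left out SP2 ranged from -0.0281 to 0.0218 and SP3 from -0.0336 to 0.0233. The cause was not tested. DESeq2 gave no adjusted p for the low genes PLAU, THBD, SP6 and SP7.

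The number of genes called, 3835, was 1871 at an adjusted p under 0.01 and 2163 to 4890 with 1 library left out, lowest without DMSO replicate 1 and highest without GSK-A1 replicate 2. Leaving out a library also leaves fewer samples. The 3 other KLF and SP genes called became 1 with DESeq2, 1 at an adjusted p under 0.01 and 1 to 3 with 1 library left out. The share of calls that were higher, 52.3%, was 62.5% with DESeq2 and 63.9% with the GC trend removed. The number of members called ranged from 5 to 8. Deviations of libraries with the same replicate number correlated at only 0.011, 0.019 and 0.032 across genes, and the numbers were not taken to pair the cultures. Every library but GSK-A1 replicate 1 did correlate best with its own number. GSK-A1 replicate 1 was at 0.012 with DMSO replicate 2 and at 0.011 with DMSO replicate 1. With a replicate block 4127 genes were called, with 6 members and 3 other KLF and SP genes among them. Depth limits KLF2, at 81 to 182 counts, the relatives under 1 CPM, and PLAU and THBD among the targets.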
